A study of Mus musculus with 12 samples.

Results

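Small leucine-rich proteoglycans are secreted proteins of connective tissue, and their transcripts were followed here in mouse prostate. The family was taken as 10 named genes, Dcn, Bgn, Aspn, Fmod, Lum, Prelp, Omd, Kera, Ogn and Optc, looked up by gene name in the deposited count tables of both generations. Of these, 9 were measured, out of 28075 genes listed in either table, and Kera was not analysed here. All 9 passed the filter on low counts in both generations. The 10 genes were selected on earlier results of these same libraries, in which the log2 fold change of Fmod between chlordecone and control had been seen, so their differences between groups are given as descriptions, without a p-value.

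The study followed an exposure of pregnant females (F0) to chlordecone (kepone), a persistent organochlorine pesticide with oestrogen-like activity. The dose was 100 µg/kg/day from E6.5 to E15.5 of gestation, and the prostate of males was taken for RNA sequencing in the F1 generation, exposed in the womb, and in the F3 generation, bred on from exposed F1 mice. The groups were F1 chlordecone (3 libraries), F1 control (2 libraries, since F1 control 3 was not analysed here), F3 chlordecone (3 libraries) and F3 control (3 libraries). The sources used here do not say what the F0 dams of control mice received, nor the strain, the age or whether a sample was 1 animal or a pool. Differences between samples of a group may therefore be technical, and the tests measure only the spread between these samples.

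Each member of the family has a protein core of leucine-rich repeats, and most carry chondroitin, dermatan or keratan sulfate chains. The cores of decorin, biglycan, fibromodulin and lumican bind collagen and control how thick collagen fibrils grow, and decorin, biglycan and fibromodulin also bind TGF-beta. In the prostate these genes are mainly expressed by the fibroblasts and smooth muscle of the stroma that surrounds the glands. The genes lie in clusters. In GRCm38 (GENCODE M21), Optc, Prelp and Fmod share chromosome 1, Dcn and Lum share chromosome 10, Aspn, Omd and Ogn share chromosome 13, and Bgn lies on chromosome X.

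Promoter sequence is shown for the 4 members whose F1 libraries did not overlap between the groups, Fmod, Optc, Prelp and Bgn, so that the chromosome 1 trio can be set beside Bgn. Each line gives the 250 bases before the RefSeq start of the gene (GRCm38.p6), 5′ to 3′ on the strand of the gene, with CG dinucleotides, the sites that DNA methylation can mark in mammals, in capitals. The stretches are Fmod at chr1:134037004-134037253 (plus strand), Optc at chr1:133908000-133908249 (minus strand), Prelp at chr1:133921402-133921651 (minus strand) and Bgn at chrX:73483351-73483600 (plus strand).
Fmod: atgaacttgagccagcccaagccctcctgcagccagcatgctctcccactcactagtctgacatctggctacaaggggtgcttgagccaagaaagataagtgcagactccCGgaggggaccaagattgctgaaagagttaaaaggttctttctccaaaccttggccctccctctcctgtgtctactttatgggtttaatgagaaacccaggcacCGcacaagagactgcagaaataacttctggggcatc
Optc: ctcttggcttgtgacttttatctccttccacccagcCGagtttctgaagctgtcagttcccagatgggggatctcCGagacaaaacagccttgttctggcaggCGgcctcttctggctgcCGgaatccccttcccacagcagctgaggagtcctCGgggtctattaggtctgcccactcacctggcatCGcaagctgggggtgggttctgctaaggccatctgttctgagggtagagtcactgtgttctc
Prelp: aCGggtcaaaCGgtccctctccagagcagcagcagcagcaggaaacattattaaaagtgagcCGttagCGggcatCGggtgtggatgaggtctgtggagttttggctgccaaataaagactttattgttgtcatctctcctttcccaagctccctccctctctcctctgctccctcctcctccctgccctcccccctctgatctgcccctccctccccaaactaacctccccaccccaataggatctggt
Bgn: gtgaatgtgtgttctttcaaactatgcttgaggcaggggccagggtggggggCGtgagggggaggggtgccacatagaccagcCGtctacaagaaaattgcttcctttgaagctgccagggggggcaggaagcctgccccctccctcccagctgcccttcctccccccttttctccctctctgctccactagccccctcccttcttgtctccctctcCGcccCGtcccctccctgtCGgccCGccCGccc

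The Fmod stretch held 2 CG dinucleotides, against 6 in Optc, 5 in Prelp, 7 in Bgn and a median of 6 over 32851 RefSeq stretches of the same length. Its GC content was 51.2%, against 56.8% in Optc, 55.6% in Prelp, 64.4% in Bgn and a median of 52.4% over all stretches. RefSeq stretches were matched for 8 of the 10 genes, the other two being Dcn and Lum. On both strands, the TATA box TATAAA was found in Aspn and Ogn (12.4% of all stretches held it), the GC box GGGCGG in Bgn (32.7%) and the CCAAT box in Aspn, Kera and Prelp (33.8%). None of the 8 stretches held the AP-1 site TGANTCA (6.75% of all), the E-box CACGTG (6.02%), the palindromic Smad site GTCTAGAC (0.167%), the full palindromic oestrogen response element (0.0639%) or the full palindromic androgen response element (0.00913%). These matches describe letters in a window and say nothing on the binding of any factor.

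Total counts lay between 17228539 and 28061760 in the F1 libraries and between 71672418 and 114762135 in the F3 libraries. The luminal prostate list (10 of 10 markers in both tables) summed to 40829 to 89923 CPM in F1 chlordecone, 80613 to 95735 CPM in F1 control, 89385 to 98703 CPM in F3 chlordecone and 94499 to 107431 CPM in F3 control. CPM is the count of a gene relative to its library size, scaled by the trimmed mean of M values (TMM). The F1 libraries also held seminal vesicle products (7 of 7 markers), at 187024 to 528811 CPM in chlordecone and 118447 to 121062 CPM in control. No F3 library held more than 70.2 CPM of them. Of the 7, 3 were higher in F1 chlordecone without overlap, where 16.2% of all genes were. Svs1, Svs3a, Svs4 and Svs6 lay below both controls in F1 chlordecone 1 and 3 and above both in chlordecone 2. Svs4 was the most abundant of the 7 in F1 control 1 and 2, at 77826 and 81025 CPM. Vas deferens and epididymis markers (5 of 8 in the F1 table) summed to 44289, 103 and 13929 CPM in F1 chlordecone 1, 2 and 3, against 25.7 and 24.8 CPM in F1 control 1 and 2. Of these 5, Akr1b7 and Crisp1 gave nearly all of the sum, and Lcn9 was at 0 in all 3 chlordecone libraries. The F1 and F3 tables went through different steps, so levels set across generations are descriptions.

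Decorin dominated the family in every group. Exon lengths came from GENCODE M21 for both tables. The start and end positions deposited in the F1 table were those of M21 for 0 of the 9 members, although the span was the same for all 9, and in the F3 table both positions matched for 4 of the 9, so levels per kb assume that the counted exons were those of M21. Per kb of exon, Dcn stood at 119 ± 26.1 CPM per kb in F1 chlordecone (SD, n = 3) and 110 ± 16.2 in F1 control (n = 2), and at 30.8 ± 2.90 in F3 chlordecone and 28.7 ± 9.39 in F3 control (n = 3 each). Its share of the summed level of the 9 members was 75.1% ± 3.04 in F1 chlordecone and 79.8% ± 1.98 in F1 control. In F3 the share was 58.5% ± 1.67 in chlordecone and 48.1% ± 2.70 in control, and these groups did not overlap. The level of Dcn itself overlapped between the F3 groups. A share also moves with the other members, and that of Fmod was 7.69% ± 1.01 in F3 chlordecone and 17.3% ± 6.02 in F3 control. The 9 members together summed to 177, 120 and 179 CPM per kb in F1 chlordecone 1, 2 and 3, against 150 and 126 in F1 control 1 and 2. In F3 they summed to 48.7, 49.4 and 60.4 CPM per kb in chlordecone 1, 2 and 3, against 39.7, 68.8 and 68.9 in control 1, 2 and 3. Neither generation separated the groups by this sum.

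Below Dcn, the order of the members by level per kb differed between the groups, most of all in the place of Fmod, the gene of fibromodulin. In F1 chlordecone Ogn, Lum, Aspn, Bgn, Optc, Prelp and Fmod followed in that order, from 9.24 ± 2.46 to 1.88 ± 0.477 CPM per kb, and each overlapped its neighbour in the order. In F1 control Aspn stood second (9.84 ± 1.04 CPM per kb) and Fmod last (0.241 ± 0.0402), overlapping Optc just above it. In F3 chlordecone Prelp stood second (6.49 ± 1.03 CPM per kb), and Ogn, Bgn and Fmod overlapped one another behind it. In F3 control Fmod stood second at 9.54 ± 0.235 CPM per kb, above Prelp at 7.34 ± 1.85, and every Fmod library lay above every Prelp library. Omd was the lowest member in all groups except F1 control, where Optc and Fmod lay below it.

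**Figure D1:**
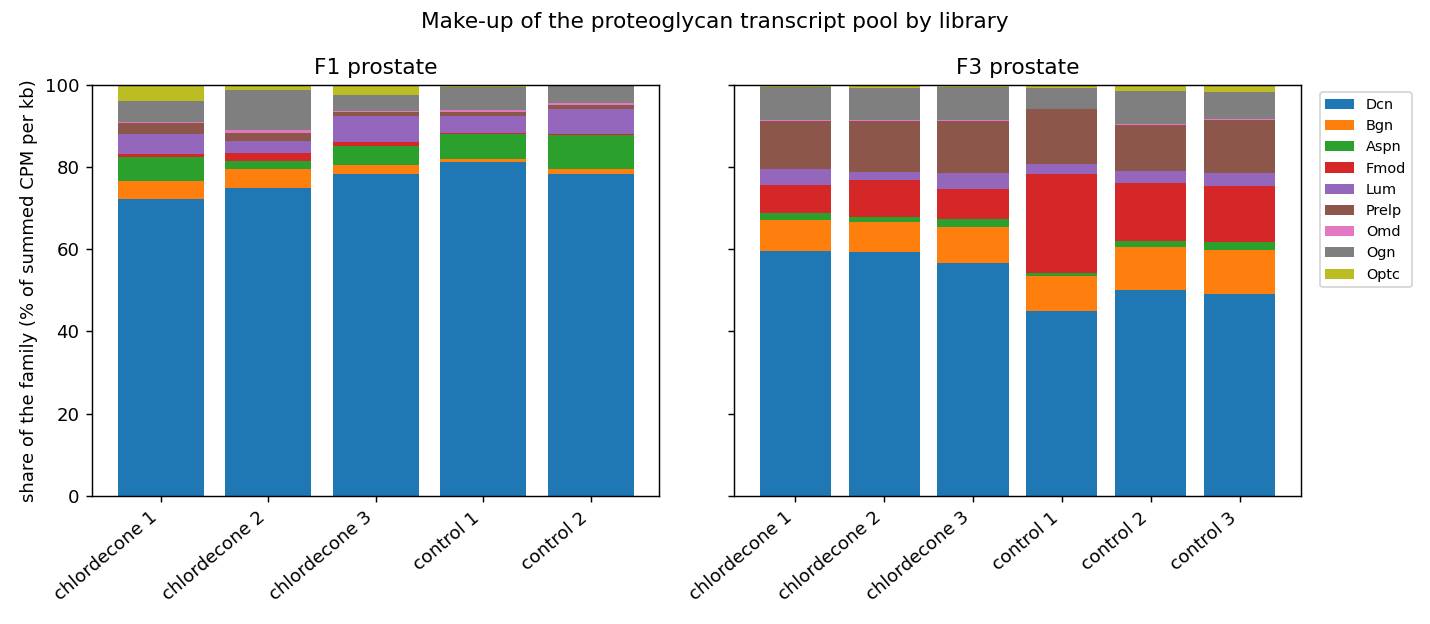
Share of each of the 9 members in the summed proteoglycan level (CPM per kb, vertical axis in %) in each library, F1 on the left and F3 on the right, with chlordecone libraries left of control libraries. Dcn takes 72.2% to 81.2% in F1 and 45.0% to 59.6% in F3, and Fmod takes 6.86% to 8.82% in F3 chlordecone, against 13.5% to 24.2% in F3 control.

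The F1 comparison asks how exposure in the womb and its absence differed in the prostate of the offspring. Of the 9 members, 7 had a positive and 2 a negative log2 fold change (chlordecone over control), with a median of 0.43, against 0.02 over all 17804 genes tested. Groups did not overlap for 4 members, all higher in chlordecone, where 16.2% of all genes were higher without overlap and 15.1% lower. With edgeR's quasi-likelihood test, 0 of 9 members passed an adjusted p of 0.05, where 0.0281% of all genes did. At an unadjusted p under 0.05 there were 4 of 9 members and 2053 of 17804 genes. DESeq2 called 3 of 9, Bgn, Fmod and Optc, where it called 3.89% of all genes. The members were chosen with earlier results of these libraries known, so no more is read from these shares.

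The F3 comparison asks the same of great-grandsons of the dosed females, which were never exposed directly. Here 4 members had a positive and 5 a negative log2 fold change, with a median of -0.02, against -0.01 over all 16766 genes tested. Groups did not overlap for 1 member, Fmod, which was lower in chlordecone (8.25% of all genes were lower without overlap and 8.34% higher). Fmod was also the 1 member past the edgeR threshold, where 0.0596% of all genes passed. DESeq2 called Fmod and Optc, where it called 1.28% of all genes. The F3 result of Fmod was known when the members were chosen, so these calls are descriptions. The Fmod call was lost when any of 5 of the 6 libraries was left out, and it held without F3 control 1. The count of members called was 0 with the replicate number as a block, and likewise 0 in 1 fit of both generations and with scaling by fibroblast markers.

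**Figure D2:**
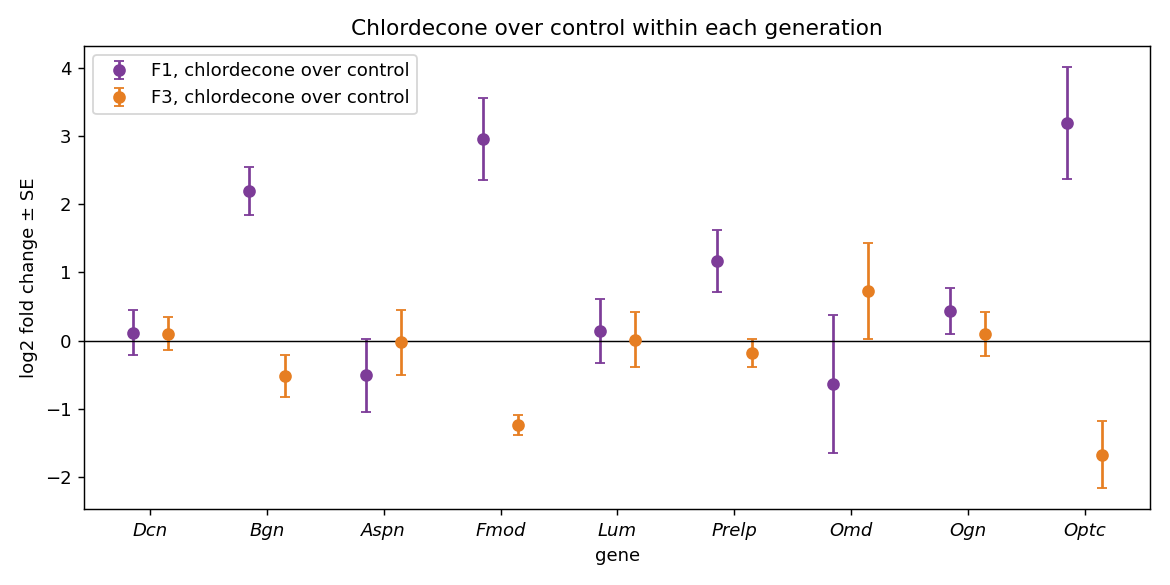
Log2 fold change of chlordecone over control (vertical axis, points) with its standard error (bars) for the 9 members in F1 (purple) and in F3 (orange). Fmod, Optc and Bgn lie above 0 in F1, at 2.95, 3.19 and 2.19, and below 0 in F3, at -1.23, -1.67 and -0.52.

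Among the class I members, decorin and biglycan parted in F1. Dcn encodes decorin, which carries 1 chondroitin or dermatan sulfate chain, and had 744, 524 and 817 CPM in F1 chlordecone 1, 2 and 3, against 710 and 576 CPM in F1 control 1 and 2. The groups overlapped, with a log2 fold change of 0.11 (SE 0.33). In F3, Dcn had 169, 171 and 200 CPM in chlordecone 1, 2 and 3, against 105, 202 and 197 CPM in control 1, 2 and 3 (log2 fold change 0.10, SE 0.24). F3 control 1 was the lowest of the 6 libraries and the other 5 lay close together.

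Bgn, the gene of biglycan, a proteoglycan that also signals through Toll-like receptors when it is released from the matrix, had 48.9, 32.6 and 25.9 CPM in F1 chlordecone 1, 2 and 3, against 7.13 and 8.58 CPM in F1 control 1 and 2. Every chlordecone library lay well above both controls. The mean was 35.8 ± 11.8 CPM in chlordecone (SD, n = 3) and 7.85 ± 1.03 CPM in control (n = 2), a log2 fold change of 2.19 (SE 0.35). In F3, Bgn had 22.0, 21.6 and 32.8 CPM in chlordecone 1, 2 and 3, against 20.3, 43.3 and 45.6 CPM in control 1, 2 and 3. F3 control 1 lay below the chlordecone libraries and the other controls above them, and the log2 fold change was -0.52 (SE 0.31).

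Smooth muscle markers (10 of 10 in both tables) were also higher in F1 chlordecone. They summed to 13937, 6072 and 8682 CPM in F1 chlordecone 1, 2 and 3, against 4743 and 4594 CPM in F1 control 1 and 2, and 9 of the 10 were higher in chlordecone without overlap, where 16.2% of all genes were. In F3 they summed to 1850, 2867 and 2738 CPM in chlordecone 1, 2 and 3, against 1435, 4704 and 3970 CPM in control 1, 2 and 3, so that F3 control 1 was again the lowest. Fibroblast markers (14 of 14 in both tables) summed to 336 to 520 CPM in F1 chlordecone and 300 to 306 CPM in F1 control. Gene by gene, 9 of the 14 had a positive and 5 a negative log2 fold change in F1. Without overlap, 5 were higher in F1 chlordecone and 1 lower. In F3 the sums were 519 to 605 CPM in chlordecone and 340 to 765 CPM in control. None of these lists had a member past the edgeR threshold (at an unadjusted p under 0.05, 7 smooth muscle and 4 fibroblast genes in F1 and 0 and 1 in F3, while DESeq2 called 4 and 1 in F1 and 0 and 0 in F3). The part of these markers in the level of Bgn was not tested. In bulk tissue, fewer cells of a type and less RNA per cell cannot be told apart.

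Aspn encodes asporin, which binds TGF-beta and collagen and lacks a sugar chain of the decorin kind. It had 24.2, 5.51 and 19.0 CPM in F1 chlordecone 1, 2 and 3, against 21.4 and 24.9 CPM in F1 control 1 and 2, so that chlordecone 2 was low and the others overlapped. The log2 fold change was -0.51 (SE 0.53). In F3 it had 2.09, 1.63 and 2.60 CPM in chlordecone 1, 2 and 3, against 0.740, 2.504 and 3.19 CPM in control 1, 2 and 3 (log2 fold change -0.02, SE 0.48). Aspn and Cenpp on the other strand share 7 bases of exon.

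In class II, Fmod separated the groups in both generations. It encodes fibromodulin, a keratan sulfate proteoglycan that binds fibrillar collagen, and had 4.55, 7.69 and 6.40 CPM in F1 chlordecone 1, 2 and 3, against 0.891 and 0.703 CPM in F1 control 1 and 2. The raw counts behind these were 115, 141 and 139 in chlordecone, against 17 and 15 in control. All 3 chlordecone libraries lay far above both controls, with a 7.75-fold ratio of the fitted means (log2 fold change 2.95, SE 0.60). In F3, Fmod had 11.04, 14.4 and 14.8 CPM in chlordecone 1, 2 and 3, against 31.8, 32.1 and 30.7 CPM in control 1, 2 and 3. All 3 chlordecone libraries were lower than every control, 2.35-fold in the fitted means (log2 fold change -1.23, SE 0.14), and the controls differed among themselves by no more than 1.05-fold. F3 control 1, the lowest library for Dcn, Bgn, Aspn, Lum, Prelp, Ogn and Omd, was level with the other controls for Fmod.

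Summed markers of other cell types also separated the groups. Of 16 marker lists, 9 were higher in F1 chlordecone without overlap, 2 were lower and 5 overlapped. Over all single genes, 16.2% were higher without overlap in F1 and 15.1% lower. A sum follows its most abundant markers. The lists also share markers, with Upk3b in urothelium and mesothelium and Krt19 in luminal prostate and mesothelium. Adipose markers (7 of 8 in the F1 table) summed to 111, 308 and 83.8 CPM in F1 chlordecone 1, 2 and 3, against 32.5 and 34.2 CPM in F1 control 1 and 2. Peripheral nerve markers (8 of 8) summed to 64.1, 179 and 70.9 CPM in F1 chlordecone 1, 2 and 3, against 38.0 and 42.5 CPM in F1 control 1 and 2. Both lists were highest in chlordecone 2, as Fmod was. Gene by gene, 5 of 7 adipose and 1 of 8 peripheral nerve markers were higher in F1 chlordecone without overlap. Basal epithelium markers (6 of 6) ran from 65.1 to 97.99 CPM in F1 chlordecone, against 32.1 to 44.1 CPM in F1 control, and were also highest in chlordecone 2. The sum of the endothelium markers (8 of 8 in the F1 table) was lower, at 42.9 to 47.4 CPM in F1 chlordecone and 70.2 to 73.5 CPM in F1 control. Gene by gene, 6 of the 8 had a negative and 2 a positive log2 fold change, and 2 were lower without overlap. The other lists with a higher sum were smooth muscle, fibroblast, seminal vesicle, vas deferens and epididymis, striated muscle and leukocytes. Of the genes tested, 1 of 6 for striated muscle and 2 of 8 for leukocytes were higher without overlap. Leukocyte markers summed to 58.7, 32.2 and 291 CPM in F1 chlordecone 1, 2 and 3. The other list with a lower sum was tendon and cartilage. Of its 7 genes tested, 4 had a positive and 3 a negative log2 fold change, and 1 was lower without overlap. In F3, 3 lists were higher in chlordecone without overlap, 1 was lower and 12 overlapped. Over all single genes, 8.34% were higher without overlap in F3 and 8.25% lower. The sum of the mesothelium markers (6 of 6 in the F3 table) was lower, at 466 to 498 CPM in F3 chlordecone and 511 to 650 CPM in F3 control. Of the 6 genes, 1 was lower without overlap. Basal epithelium markers (6 of 6) ran from 188 to 261 CPM in F3 chlordecone, against 152 to 178 CPM in F3 control, and urothelium markers (6 of 6) from 187 to 223 CPM in F3 chlordecone, against 114 to 158 CPM in F3 control. The third was vas deferens and epididymis, at no more than 0.349 CPM. The part of these markers in the level of Fmod was not tested.

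**Figure D3:**
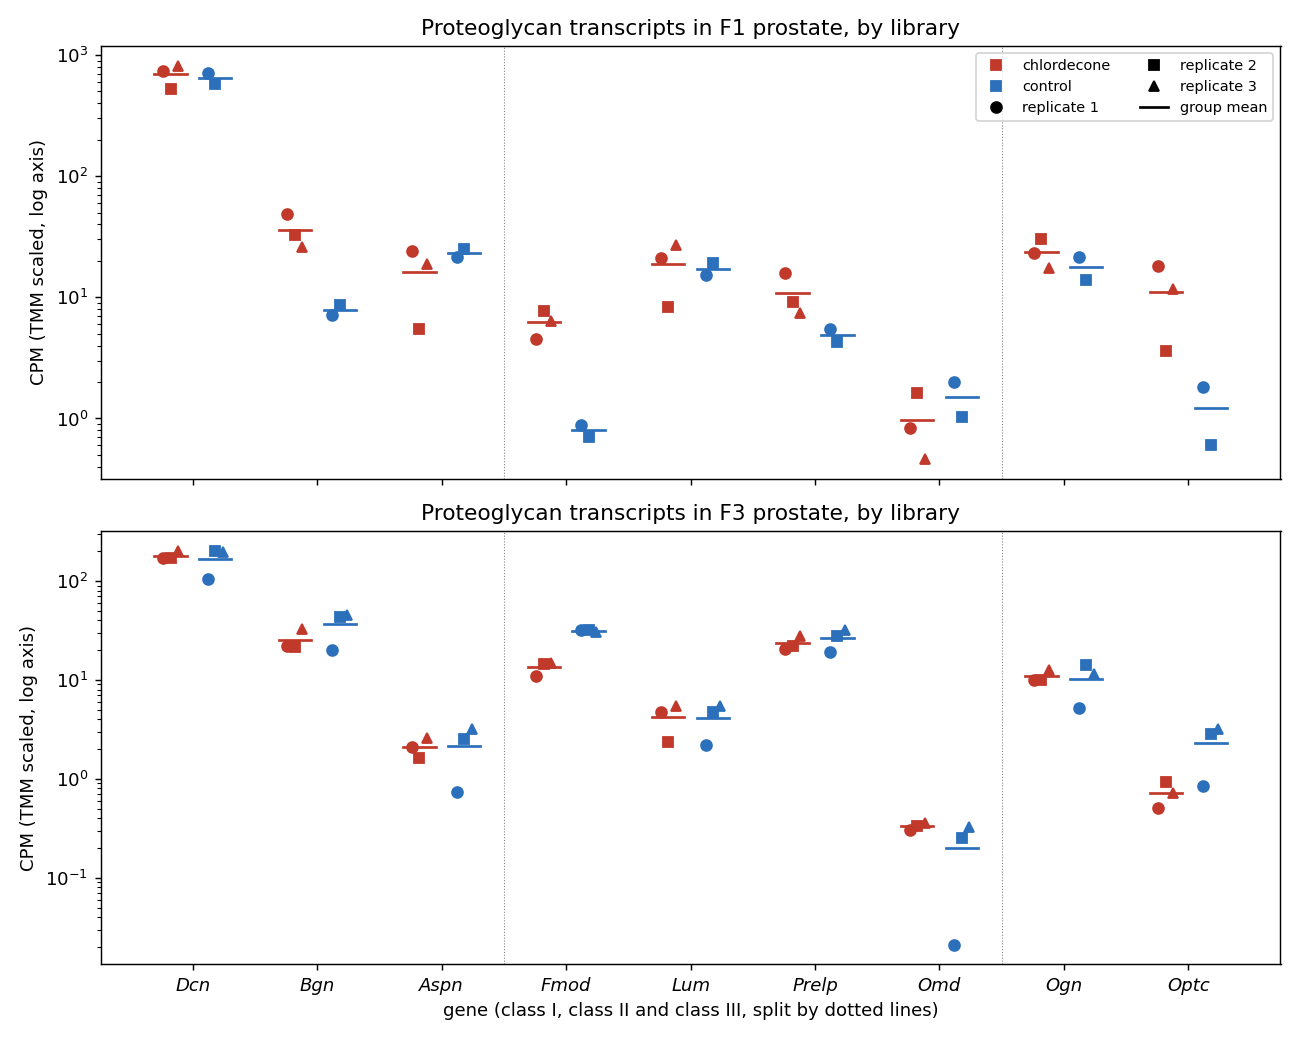
TMM-scaled CPM (log axis) of each member in every library, F1 above and F3 below, with chlordecone (red) left of control (blue), symbols for the replicate number and bars for the group mean. Fmod runs from 4.55 to 7.69 CPM in F1 chlordecone, against 0.703 to 0.891 CPM in F1 control, and from 11.04 to 14.8 CPM in F3 chlordecone, against 30.7 to 32.1 CPM in F3 control.

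A ratio of counts within a library needs no scaling between libraries, and Dcn, abundant and overlapping between the groups in both generations, was taken as the denominator. The log2 ratio of Fmod to Dcn was -7.35, -6.09 and -7.00 in F1 chlordecone 1, 2 and 3, against -9.64 and -9.68 in F1 control 1 and 2. In F3 it was -3.94, -3.57 and -3.76 in chlordecone 1, 2 and 3, against -1.72, -2.65 and -2.68 in control 1, 2 and 3. The groups were separate in both generations, in opposite directions. For Bgn the log2 ratio averaged -4.30 ± 0.58 in F1 chlordecone and -6.35 ± 0.40 in F1 control, and -2.85 ± 0.21 in F3 chlordecone and -2.23 ± 0.13 in F3 control. On this scale the F3 Bgn groups no longer overlapped, at -2.94, -2.99 and -2.61 in chlordecone 1, 2 and 3, against -2.37, -2.22 and -2.11 in control 1, 2 and 3. F3 control 1, which made the F3 Bgn groups overlap in CPM, was also the lowest F3 library for Dcn. The F3 groups of Prelp were also separate, narrowly, at -3.046, -2.946 and -2.853 in chlordecone 1, 2 and 3. The Prelp controls lay at -2.441, -2.847 and -2.607. Omd was separate in the other direction, at -9.11, -8.99 and -9.12 in chlordecone, against -12.3, -9.63 and -9.25 in control. Lum, Ogn and Aspn overlapped in F3. The ratio to Dcn was added after the levels had been seen.

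**Figure D4:**
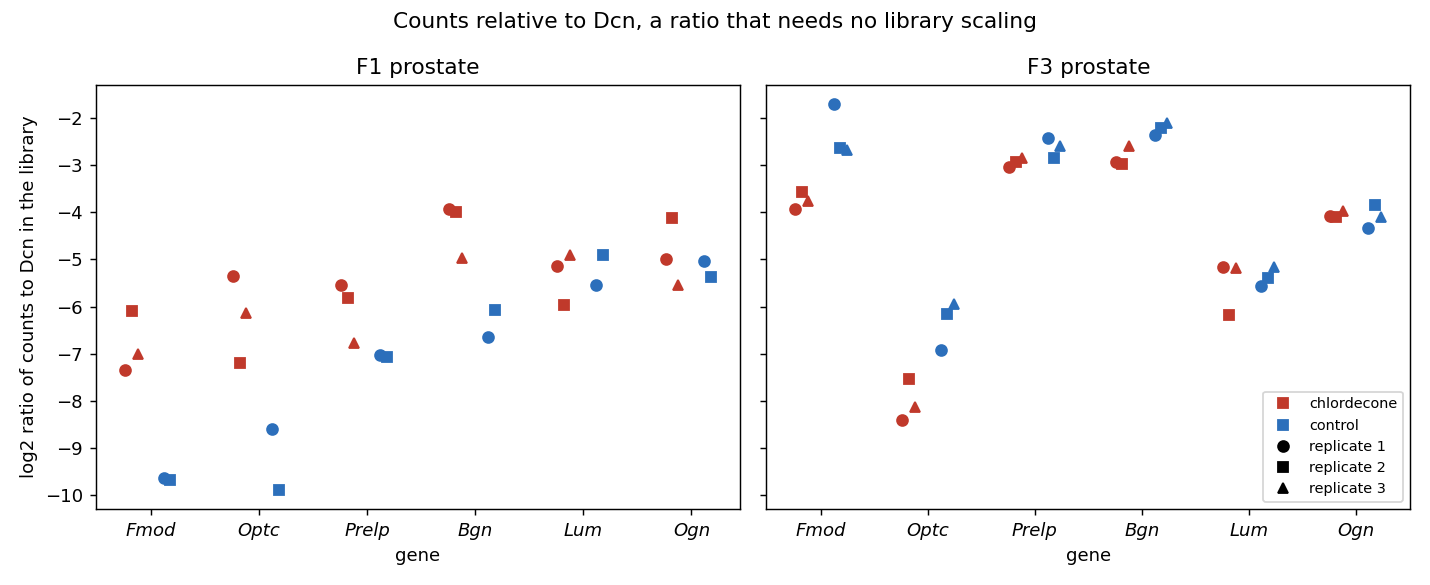
Log2 ratio of the counts of 6 members to those of Dcn in the same library (vertical axis), F1 on the left and F3 on the right, with chlordecone (red) left of control (blue) and symbols for the replicate number. Fmod, Optc, Bgn and, narrowly in F3, Prelp lie higher in chlordecone in F1 and lower in F3. Lum and Ogn overlap between the groups in both generations.

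Lum, the gene of lumican, a keratan sulfate proteoglycan of cornea and other connective tissues, had 21.1, 8.34 and 27.1 CPM in F1 chlordecone 1, 2 and 3, against 15.1 and 19.0 CPM in F1 control 1 and 2. In F3 it had 4.71, 2.35 and 5.51 CPM in chlordecone 1, 2 and 3, against 2.21, 4.78 and 5.50 CPM in control 1, 2 and 3. Chlordecone 2 was the lowest chlordecone library in each generation, and the groups overlapped in both. The log2 fold changes were 0.14 (SE 0.46) in F1 and 0.01 (SE 0.40) in F3, and their sign turned under 6 of 15 alternatives in F1 and 5 of 15 in F3. The sign of Dcn turned under 5 of 14 alternatives in F1 and 1 of 14 in F3.

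Prelp encodes PRELP, a heparan sulfate binding member found near basement membranes. It had 15.9, 9.22 and 7.46 CPM in F1 chlordecone 1, 2 and 3, against 5.45 and 4.26 CPM in F1 control 1 and 2, so that all chlordecone libraries were higher (log2 fold change 1.16, SE 0.45). In F3 it had 20.5, 22.2 and 27.6 CPM in chlordecone 1, 2 and 3, against 19.2, 28.0 and 32.3 CPM in control 1, 2 and 3, with overlap (log2 fold change -0.18, SE 0.21). Of the exon bases of Prelp, 9.68% are shared with the antisense gene Gm15851, and since the strand setting of the counting is not given, the reads of this stretch are uncertain.

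Omd, the gene of osteomodulin, a keratan sulfate proteoglycan of bone, was scarce. It had 0.831, 1.64 and 0.460 CPM in F1 chlordecone 1, 2 and 3, against 1.99 and 1.03 CPM in F1 control 1 and 2. In F3 its raw counts were 34, 29 and 38 in chlordecone 1, 2 and 3, against 2, 18 and 39 in control 1, 2 and 3. The groups overlapped in both generations, and the log2 fold changes of -0.63 (SE 1.01) in F1 and 0.73 (SE 0.70) in F3 carried the largest standard errors of the 9 members.

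Of the class III members, Optc separated the F1 groups and Ogn did not. Ogn, the gene of osteoglycin (mimecan), had 23.4, 30.2 and 17.6 CPM in F1 chlordecone 1, 2 and 3, against 21.5 and 13.8 CPM in F1 control 1 and 2 (log2 fold change 0.43, SE 0.34). In F3 it had 10.02, 9.90 and 12.7 CPM in chlordecone 1, 2 and 3, against 5.15, 14.003 and 11.4 CPM in control 1, 2 and 3 (log2 fold change 0.09, SE 0.33). The groups overlapped in both generations.

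Optc encodes opticin, best known from the vitreous of the eye. It had 18.1, 3.60 and 11.6 CPM in F1 chlordecone 1, 2 and 3, against 1.83 and 0.609 CPM in F1 control 1 and 2 (log2 fold change 3.19, SE 0.82). All chlordecone libraries were higher, but they spread 5.03-fold among themselves, with chlordecone 1 highest and chlordecone 2 lowest. Several marker sums had the same order, namely vas deferens and epididymis at 44289, 103 and 13929 CPM in F1 chlordecone 1, 2 and 3, smooth muscle at 13937, 6072 and 8682 CPM, striated muscle at 379, 174 and 233 CPM, mesothelium at 468, 38.4 and 138 CPM and urothelium at 74.2, 14.6 and 73.6 CPM. The part of such tissue in the level of Optc was not tested. Chlordecone 2 by itself against both controls, 1 library with no spread of its own, gave log2 fold changes of 1.56 for Optc, 3.26 for Fmod and 2.05 for Bgn, and its vas deferens and seminal vesicle sums were above those of the controls as well. In F3 the vas deferens and epididymis markers summed to at most 0.349 CPM in any library. There Optc had 0.503, 0.929 and 0.717 CPM in chlordecone 1, 2 and 3, against 0.857, 2.81 and 3.18 CPM in control 1, 2 and 3. F3 control 1 lay within the chlordecone range and the other controls well above it (log2 fold change -1.67, SE 0.49).

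The difference of the 2 log2 fold changes, F3 minus F1, was fitted over all 11 libraries and 16980 genes. It was -4.14 (SE 0.39) for Fmod, -4.77 (SE 0.98) for Optc, -2.63 (SE 0.47) for Bgn and -1.27 (SE 0.42) for Prelp, and lay between -0.27 and 1.44 for the other 5 members. The first 3 passed the edgeR threshold, where 0.718% of all genes did, and DESeq2 called the same 3, where it called 6.90%. This difference holds the F3 contrast, whose Fmod result was known when the members were chosen, and is a description as well. When each of the 11 libraries was left out in turn, Fmod passed every time. Bgn passed 4 times, without F1 chlordecone 2, F1 chlordecone 3, F3 chlordecone 3 or F3 control 1, and Optc 2 times, without F1 chlordecone 2 or F3 control 1.

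The profile of every gene with a mean of at least 1 CPM in both tables was compared with that of Fmod and of Dcn over the 11 libraries, as log2(CPM + 0.5) centred within each table. Among 11661 genes, the nearest to Fmod by Euclidean distance were Zfp579 (1.08), Tstd1 (1.24), C1qc (1.28), Dtx3 (1.31) and Echdc2 (1.39), where the median gene lay at 3.16. Bgn ranked 37 in that order, Prelp 581, Optc 814 and Dcn 6490. The nearest to Dcn were Ptbp2 (0.30), Pon3 (0.42), Agps (0.42), Gtf2a2 (0.43) and Kbtbd3 (0.48), where the median gene lay at 1.34. In nearness to Dcn, Ogn ranked 3251 (distance 1.13) and Lum, which shares chromosome 10 with Dcn, 3553 (1.15), both nearer than the median gene, while Bgn ranked 11178. These distances hold the differences between chlordecone and control, among them the F3 difference of Fmod known when the members were selected. They are descriptions.

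The chromosome 1 trio spans 2 gaps, 2304 bp between Optc and Prelp and 116 kb between Prelp and Fmod. Fmod runs from 134037254 to 134048277 on the plus strand with 3 exons, Prelp from 133910304 to 133921414 and Optc from 133897199 to 133907999, both on the minus strand. Within 500 kb of the trio, 15 other genes were tested in F1, of which 11 had a positive log2 fold change with a median of 0.29. Without overlap, 4 of them were higher in chlordecone and 2 lower, where 16.2% of all genes were higher and 15.1% lower. In F3, 17 were tested, 10 with a positive value, with a median of 0.03. The F3 groups overlapped for all of them, where 8.34% of all genes were higher without overlap and 8.25% lower. None passed the edgeR threshold in either generation. The 4 with the smallest p were all from F1. Mybph, a muscle myosin-binding protein, averaged 6.29 ± 5.77 CPM in F1 chlordecone and 0.0262 ± 0.0370 CPM in F1 control, and Adora1, the adenosine A1 receptor, 35.9 ± 35.6 and 2.01 ± 0.471 CPM (edgeR adjusted p = 0.209 and 0.216). These genes overlap on opposite strands, so their reads are uncertain. Atp2b4, a plasma membrane calcium pump, averaged 28.4 ± 8.49 CPM in F1 chlordecone and 13.9 ± 4.21 CPM in F1 control, and Tmem183a 117 ± 10.1 and 196 ± 0.195 CPM (edgeR adjusted p = 0.322 for each). Btg2, the nearest coding gene beyond Fmod, had a log2 fold change of 0.70 (SE 0.29) in F1 and -0.17 (SE 0.16) in F3.

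**Figure D5:**
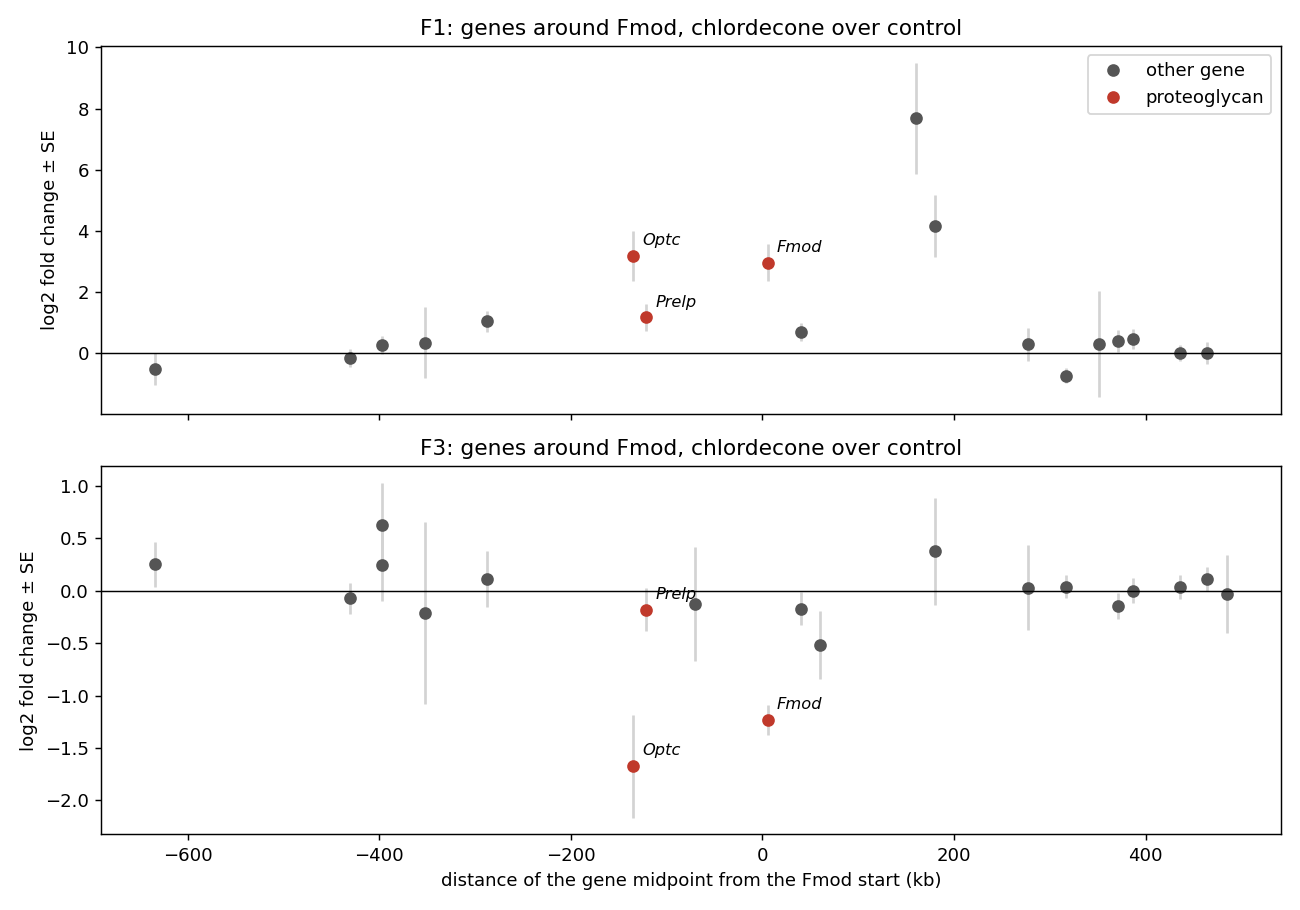
Log2 fold change of chlordecone over control (points) with its standard error (bars) for the genes tested within 500 kb of the chromosome 1 trio, against the distance of the gene midpoint from the Fmod start in kb, F1 above and F3 below, with the trio in red. In F3 Fmod and Optc, at -1.23 and -1.67, lie below every other gene of the window.

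Around Bgn on chromosome X (73483602 to 73495933, plus strand, 7 exons), 23 other genes were tested in F1, 16 of them positive with a median of 0.36, and 24 in F3, 8 of them positive with a median of -0.11. None passed the edgeR threshold. The smallest p in F1 belonged to Xlr3a, at 2.69 ± 0.525 CPM in chlordecone and 18.5 ± 2.25 CPM in control (edgeR adjusted p = 0.0629), and Xlr3b, at 1.17 ± 0.635 and 10.4 ± 3.20 CPM (edgeR adjusted p = 0.152), near-identical copies whose reads are uncertain. L1cam, a neural adhesion molecule, averaged 2.05 ± 0.414 CPM in F1 chlordecone and 0.342 ± 0.113 CPM in F1 control (edgeR adjusted p = 0.375). Zfp275 averaged 19.8 ± 2.36 CPM in F3 chlordecone and 15.03 ± 1.40 CPM in F3 control (edgeR adjusted p = 0.435). Around the clusters of chromosomes 10 and 13, 5 and 11 genes were tested in F1 and 1 and 11 in F3, and none passed.

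The genes that make, bind or cut these proteoglycans were taken as 9 lists. Over all of them, 0 of 139 genes passed the edgeR threshold in F1 and 0 of 132 in F3. At an unadjusted p under 0.05 there were 26 list genes in F1, where 2053 of all 17804 genes tested were, and 9 in F3, where 1780 of all 16766 were. DESeq2 called 14 list genes in F1, where it called 3.89% of all genes, and 2 in F3, where it called 1.28%. The fibrillar collagen list and its partners, the fibrils that these proteins coat, had 10 of 13 positive in F1 with a median log2 fold change of 0.56, and 2 of 12 positive in F3 with a median of -0.11. Col1a1 averaged 30.7 ± 8.80 CPM in F1 chlordecone and 16.3 ± 0.866 CPM in F1 control (log2 fold change 0.91, SE 0.31), and 14.8 ± 2.40 CPM in F3 chlordecone and 16.8 ± 7.45 CPM in F3 control (log2 fold change -0.18, SE 0.31). Col1a2 averaged 42.8 ± 4.56 CPM in F1 chlordecone and 28.9 ± 4.09 CPM in F1 control, and Col3a1 134 ± 47.3 and 90.1 ± 12.4 CPM. The collagen crosslinking and assembly list had 15 of 19 positive in F1 (median 0.38) and 7 of 19 in F3 (median -0.12). In it, Fn1, the gene of fibronectin, averaged 106 ± 45.0 CPM in F1 chlordecone and 44.5 ± 0.747 CPM in F1 control, and 37.2 ± 4.15 CPM in F3 chlordecone and 62.4 ± 37.8 CPM in F3 control (edgeR adjusted p = 0.282 in F1 and 0.516 in F3).

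The TGF-beta list, ligands that several members bind together with their receptors and latent binders, had 11 of 18 positive in F1 (median 0.38) and 9 of 18 in F3 (median -0.02). Smad4, the shared signal carrier of the pathway, averaged 223 ± 10.98 CPM in F1 chlordecone and 92.1 ± 18.8 CPM in F1 control (log2 fold change 1.27, SE 0.28, edgeR adjusted p = 0.197). Smad7, its inhibitor, averaged 36.4 ± 8.43 CPM in F1 chlordecone and 72.3 ± 7.52 CPM in F1 control (log2 fold change -0.99, SE 0.27, edgeR adjusted p = 0.248). DESeq2 called both. In F3 both had overlapping groups, and DESeq2 called Ccn2 and Ltbp2.

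The list of other ligands and receptors had 10 of 17 positive in F1 (median 0.09) and 6 of 18 in F3 (median -0.12). C1qc, a chain of the complement protein C1q, which decorin, biglycan and fibromodulin bind, had 2.34, 5.29 and 5.48 CPM in F1 chlordecone 1, 2 and 3, against 0.996 and 0.469 CPM in F1 control 1 and 2. In F3 it had 5.70, 4.53 and 8.35 CPM in chlordecone 1, 2 and 3, against 8.24, 11.9 and 7.85 CPM in control 1, 2 and 3, with overlap. The difference between generations passed the edgeR threshold (-3.11, SE 0.65, adjusted p = 0.0474), with the direction that Fmod had. When each library was left out in turn it passed without F1 chlordecone 1 or F1 chlordecone 2 and was lost without any of the other 9 (edgeR adjusted p from 0.0131 to 0.148). Lrp1, an endocytic receptor for decorin, averaged 25.7 ± 3.06 CPM in F1 chlordecone and 10.9 ± 2.40 CPM in F1 control (edgeR adjusted p = 0.208). Itgav, the integrin alpha V chain, averaged 51.0 ± 2.53 CPM in F1 chlordecone and 72.8 ± 2.20 CPM in F1 control (edgeR adjusted p = 0.450), and Igf1r, the receptor of insulin-like growth factor 1, 81.8 ± 8.09 and 105 ± 6.17 CPM (edgeR adjusted p = 0.631), both lower in chlordecone without overlap. In all, 5 of the 17 genes of the list tested in F1 were higher without overlap and 4 lower. Over all genes tested in F1, 16.2% were higher without overlap and 15.1% lower.

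Enzymes of the sugar chains were split by chain. The linker and chondroitin or dermatan sulfate list had 12 of 22 positive in F1 (median 0.05) and 13 of 20 in F3 (median 0.09), and the keratan sulfate list 5 of 12 in F1 (median -0.04) and 6 of 11 in F3 (median 0.03). Fam20b, a kinase of the linker, averaged 43.2 ± 31.6 CPM in F1 chlordecone and 9.47 ± 0.793 CPM in F1 control (edgeR adjusted p = 0.248). Fut8, the core fucosyltransferase, had 53.5, 38.3 and 50.04 CPM in F1 chlordecone 1, 2 and 3, against 107 and 96.9 CPM in F1 control 1 and 2. In F3 it had 349, 260 and 258 CPM in chlordecone 1, 2 and 3, against 236, 198 and 228 CPM in control 1, 2 and 3. The groups were separate in both generations, and the difference between generations passed the edgeR threshold (1.57, SE 0.29, adjusted p = 0.0303), opposite in direction to Fmod. It passed without any 1 of the F1 chlordecone libraries or without F3 control 1 and was lost without any of the other 7 (edgeR adjusted p from 0.00341 to 0.105). Fut8 and C1qc were the 2 list genes past that threshold.

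The proteases that cut these proteins and their inhibitors had 6 of 10 positive in F1 (median 0.23) and 6 of 10 in F3 (median 0.11). Among them Mmp14, a membrane-bound collagenase, averaged 12.1 ± 1.07 CPM in F3 chlordecone and 9.64 ± 0.947 CPM in F3 control (edgeR adjusted p = 0.494). Other matrix proteoglycans had 15 of 21 positive in F1 (median 0.44) and 6 of 16 in F3 (median -0.10). Agrn, the gene of agrin, averaged 21.4 ± 3.69 CPM in F1 chlordecone and 9.60 ± 2.51 CPM in F1 control (edgeR adjusted p = 0.247). The remaining leucine-rich repeat matrix genes had 3 of 7 positive in F1 (median -0.03) and 5 of 8 in F3 (median 0.20). In F1 the groups did not overlap for 1 of the 7 in each direction, where 16.2% of all genes were higher and 15.1% lower. Tsku, the gene of tsukushi, averaged 4.58 ± 0.596 CPM in F1 chlordecone and 1.93 ± 1.18 CPM in F1 control (edgeR adjusted p = 0.507), and Nyx, the gene of nyctalopin, 4.59 ± 0.134 and 8.06 ± 0.205 CPM (edgeR adjusted p = 0.484). Beside these medians, the median over all genes tested was 0.02 in F1 and -0.01 in F3.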

How the data were processed

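RNA of prostate was extracted with a column kit and made into stranded poly-A libraries, per the labels' protocols. The submitters' processing notes name the build mm10 and, with no role given, the software DESeq2 1.6.3, HTSeq 0.6.1, Bowtie2 2.1.0, TopHat2 2.0.14 and bcl2fastq 2.17.1.14. The sources used here state neither the annotation release nor the strand setting. The authors deposited whole-number read counts per Ensembl gene, 19091 genes for F1 (lowest total of a gene 20) and 26023 for F3 (lowest total 1), and 24 rows of the F1 table repeat the counts of another row. Columns headed K were read as chlordecone, after kepone, and 0 columns belonged to other samples. The deposited fold changes and p-values were not used.

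From the counts, edgeR 4.0.16 in R 4.3.3 was run within each generation and, for the difference between generations, over all 11 libraries: filterByExpr (minimum count 10, minimum total 15), TMM scaling, quasi-likelihood F test, two-sided, Benjamini-Hochberg adjusted p under 0.05 over all genes kept. Levels are CPM, also per kb of the exon union of GENCODE M21. The scripts were tested on simulated data. Named beyond the members were up to 4 genes of each list (first those past the threshold in a contrast, then the most abundant), the 5 genes nearest to Fmod and to Dcn, and the 4 neighbours with the smallest unadjusted p around a cluster (around chromosomes 1 and X). Which of these to print, and Btg2, Ccn2 and Ltbp2, were chosen after their values were seen. Members and lists were chosen with earlier results of these data known. Alternatives were DESeq2 size factors, TMM without the 20 most abundant genes, fibroblast-marker scaling, the replicate block, leaving out each library, other filters, 1 fit of all libraries and DESeq2 1.42.0 (Wald test).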

Additional observations from a re-analysis of the deposited data

Results flagged for a closer look

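The log2 fold change of chlordecone over control differed between the generations for 3 members in 1 fit of all 11 libraries. For that reason they are set apart here. The F1 and F3 tables went through different steps, and the cause of the difference was not tested. The difference of the log2 fold changes, F3 minus F1, was -4.14 (SE 0.39) for Fmod, -4.77 (SE 0.98) for Optc and -2.63 (SE 0.47) for Bgn. When each of the 11 libraries was left out in turn, Fmod passed the edgeR threshold 11 times, Bgn 4 times and Optc 2 times. The fit holds the F3 contrast, whose Fmod result was known when the members were chosen, so these values are descriptions. For Fmod all F1 chlordecone libraries were above all F1 controls and all F3 chlordecone libraries below all F3 controls, while the F3 groups of Optc and Bgn overlapped in CPM. As log2 ratios to Dcn the F3 groups were separate for both, as they were for Prelp and, in the other direction, Omd. Optc lay at -8.39, -7.53 and -8.12 in chlordecone 1, 2 and 3, against -6.93, -6.16 and -5.95 in control 1, 2 and 3. Bgn lay at -2.61 or lower in chlordecone, against -2.37 or higher in control. The overlap in CPM came from F3 control 1, which was also the lowest F3 library for Dcn, the denominator. This ratio was added after the levels had been seen, and the share of all genes separate on this scale was not counted. The chi-square per gene between the 2 F1 controls was 16.6, the lowest of all pairs of libraries within a generation, where the other F1 pairs had 266 to 599 and the F3 pairs 60.5 to 339, and the sources used here do not say whether these controls are separate animals.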

How the results depend on the processing

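The signs of Fmod, Bgn, Optc and Prelp in F1 and in F3, and of their difference, were the same under all 15 alternatives run for each. For F1, edgeR called 5 genes, of which 0 were members and 0 pathway list genes. DESeq2 called 700 genes, 3 members and 14 list genes; 1 fit of all libraries 930, 3 and 14; the replicate block 322, 2 and 8; chlordecone 2 alone (added after seeing the data; 1 library, so the spread comes from the 2 controls only) 1226, 3 and 11. Fibroblast-marker scaling called 59 genes and no filter 21. Leaving out 1 library gave 0 to 2604 genes, 0 to 3 members and 0 to 28 list genes, the highest without F1 chlordecone 2. For F3, edgeR called 10 genes, 1 member and 0 list genes. DESeq2 called 230 genes, 2 members and 2 list genes; fibroblast-marker scaling 106 genes and 0 members; no filter 38 genes; 1 fit of all libraries 2 genes and 0 members; the replicate block 8 genes and 0 members. Leaving out 1 library gave 7 to 41 genes, 0 to 1 members and 0 list genes. For the difference between generations, 122 genes, 3 members and 2 list genes were called. DESeq2 called 1150 genes and 18 list genes, DESeq2 size factors left 1 list gene, the replicate block gave 49 genes and 0 list genes, and leaving out 1 library 27 to 2320 genes, 1 to 3 members and 0 to 20 list genes. The cause was not tested. Fibroblast-marker scaling moved the median of all F1 genes by -0.52 (log2), and relative to it Fmod, Bgn and Optc stayed higher in F1 chlordecone, at 2.44, 1.66 and 2.49 before that shift is taken off. As deviations from group means, same-numbered chlordecone and control libraries correlated at 0.06 and 0.06 across genes in F1 and at 0.19, -0.05 and -0.05 in F3. With 2 F1 controls, the correlations of a chlordecone library with them are equal and opposite by construction. In F3, libraries with unlike numbers correlated at -0.29 to 0.31. These values therefore cannot decide whether the numbers pair the samples. Deposited gene lengths could not be tried, since the tables hold no such column. The F1 Fmod controls rest on 17 and 15 reads, and 1 F3 Omd library on 2.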
